A study of Homo sapiens with 80 samples.

Results

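The 8 genes described here belong to the natriuretic peptide system: the ligand genes NPPA, NPPB and NPPC, the receptor genes NPR1, NPR2 and NPR3, and the protease genes CORIN and FURIN. They were taken as a list of names. All 8 were present among the 43388 gene entries of both deposited tables of TPM, a transcript level scaled to gene length and to the library total.

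RNA was sequenced in 80 libraries of human pluripotent stem cells that were being turned into heart muscle cells. A differentiation counted as high or low purity by its fraction of troponin T positive cells on day 16. All cultures received CHIR99021, which activates WNT signalling, on day 0, then IWP2, which blocks WNT secretion, on day 2 or 3, and insulin from day 6 or 7. The multi-omic experiment had 56 poly(A) libraries of WTC11, an induced pluripotent line: 25 wells of 1 high purity differentiation at passage 52 and 31 wells of 1 low purity differentiation at passage 69, sampled every 2 days from day 0 to day 10 and then on days 13 and 16. The RNA-only experiment had 24 total RNA libraries, 1 for each of 4 steps (day 0, day 2 or 3, day 4 or 5, day 6 or 7) of 1 high and 1 low purity differentiation of H9, an embryonic line, and of IMR90-4 and WTC11, both induced lines. Each class had 4 wells up to day 6, then the multi-omic experiment had 3 high and 4 low on day 8, 1 and 4 on day 10, 2 and 4 on day 13, and 3 and 3 on day 16. High and low purity H9 were at passages 58 and 55, IMR90-4 at 55 and 75, and WTC11 at 81 and 69. Because the wells of a class came from a single differentiation, p-values in the multi-omic experiment measure only the spread between wells, and purity, passage and differentiation cannot be told apart.

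NPPA encodes atrial natriuretic peptide and NPPB brain natriuretic peptide, hormones that heart muscle releases when it is stretched, and NPPA and NPPB are widely used as genes of developing and stressed cardiomyocytes. NPPC encodes C-type natriuretic peptide, a local signal known from blood vessels and cartilage. The precursors are cut by proteases, among them corin for the atrial and furin for the other peptides. The peptides act through the membrane guanylate cyclases encoded by NPR1 (atrial and brain peptides) and NPR2 (C-type peptide), which make cyclic GMP, while the receptor encoded by NPR3 has no cyclase domain and takes up all 3 peptides.

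Depth was 6579715 to 18143597 reads per multi-omic library (recovered from the TPM) and 17990882 to 40357968 counts per RNA-only library. In the multi-omic count table the column names disagreed with those of the TPM table for all 56 columns, so the TPM table and its names were used: there the nearest column was of the same group for 52 of 55 columns, against 28 of 55 in the count table. Under the TPM names the summed level of 5 pluripotency markers was 2537 to 3315 TPM on day 0. The summed level of 11 cardiomyocyte markers on day 4 was 3353 to 4072 TPM in low and 281 to 367 TPM in high purity wells, and on day 16 it was 14264 to 16337 TPM in the high purity class and 5764 to 8440 TPM in the low purity class. On day 16, 7 fibroblast and stromal markers summed to 574 to 690 TPM in the high purity class and 9669 to 13143 TPM in the low purity class, and 5 epicardial markers to 9.11 to 12.1 and 221 to 302 TPM. The libraries were made from whole wells, so fewer cells of a type and less RNA per cell cannot be told apart, and the part of these markers in the results below was not tested.

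A gene was called when 2 conditions held in limma, fitted to log2(scaled TPM + 1) over 25664 genes: the adjusted p was below 0.05, and the log2 fold change reached 1 in either direction. Comparing the classes day by day, 0 of the 8 genes were called on day 0, where 1.07% of all tested genes were, and 0 on day 2, where 5.32% were. On day 4, 2 of 8 were called (7.84% of all genes), on day 6 it was 3 of 8 (8.8%), and on day 8 it was 5 of 8 (12.2%). On day 13, 3 of 8 were called (10.8%), and on day 16 again 5 of 8 (13.4%). NPPA and NPPB were lower in high purity wells on day 4. On day 8 NPPA was higher there, while NPPB was lower on days 8 and 16. CORIN was higher and NPR1 lower on each tested day from day 6. NPR3 was higher on days 6 and 8 and lower on day 16, and NPPC was lower on days 13 and 16. Separation of the wells without overlap was common among all genes, at 21.8%, 34.0%, 31.7%, 30.7%, 42.2%, 47.5% and 47.6% of them on the 7 tested days in order. The 18 calls over 7 days fell on 6 of the genes: NPR2 and FURIN passed on no day. With day 10 left untested because it had 1 high purity well, each gene was read on 7 days.

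**Figure D1:**
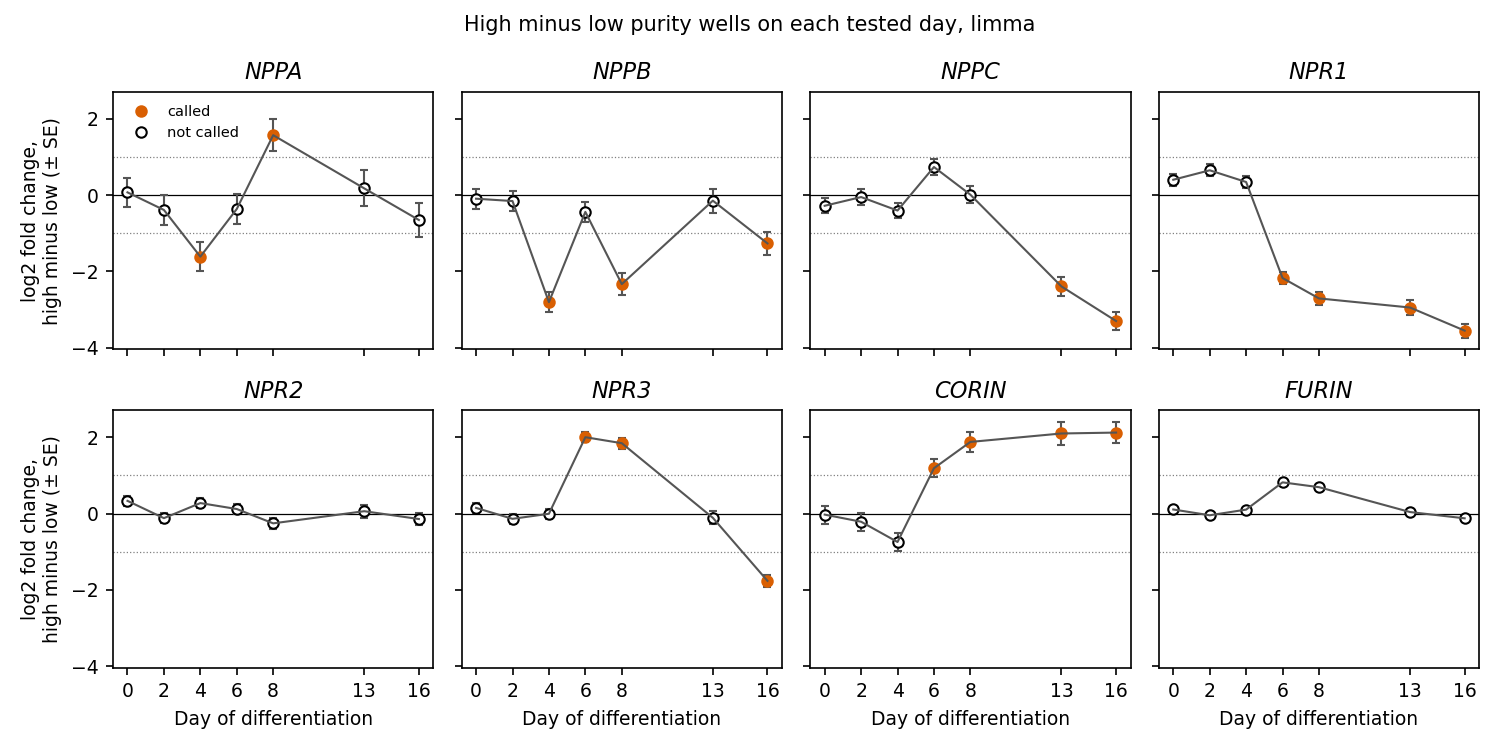
Log2 fold change, high minus low purity wells (y axis, with standard error), of each gene on the 7 tested days (x axis), from limma. Filled points were called, and dotted lines mark log2 fold changes of 1 and -1. NPR1 falls to -3.55 by day 16, CORIN stays near 2 from day 8, and NPR3 crosses from 2.00 on day 6 to -1.76 on day 16.

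The ligand gene NPPA (chr1:11845709-11847783, minus strand, GRCh38.p14) was close to its detection limit on days 0 and 2, with 0 to 8 reads per library. On day 4 it measured 0.290, 0.461, 0.925 and 2.63 TPM in the high purity wells and 3.95, 4.29, 5.91 and 6.07 TPM in the low purity wells. The classes did not overlap, and the low purity class was higher. High minus low was -1.61 (SE 0.38, limma adjusted p 0.000655; exact permutation p 0.0286, the smallest that 4 against 4 wells allow). By day 8 the order had turned: NPPA was 67.8, 96.0 and 108 TPM in the high purity class and 16.5, 28.4, 49.4 and 59.1 TPM in the low purity class. The high purity wells now lay above the rest, at a log2 fold change of 1.57 (SE 0.41, limma adjusted p 0.00163). On day 16 the high purity wells held 33.1, 33.3 and 44.2 TPM and the low purity wells 49.2, 77.3 and 80.5 TPM. These ranges did not touch either, with the low purity wells higher, but the difference of -0.65 (SE 0.44) did not pass (limma adjusted p 0.255; exact permutation p 0.1, the smallest that 3 against 3 wells allow).

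The mean of NPPA was therefore highest on day 8 in the high purity class, at 90.5 ± 20.5 TPM (SD, n = 3). In the low purity class it was highest on day 16, at 69.0 ± 17.2 TPM (SD, n = 3). The low purity wells of days 8 and 16 overlapped, at 16.5 to 59.1 and 49.2 to 80.5 TPM (exact permutation p 0.171). In the low purity class days 8, 10 and 13 could not be ordered, at 38.4 ± 19.4, 39.0 ± 14.5 and 31.8 ± 6.26 TPM (SD, n = 4 each). Of the exon bases of NPPA in GENCODE v29, 25.54% lie in exons of CLCN6, a chloride transporter gene on the opposite strand. Whether the counting used strand is not given in the sources used here, so reads there could belong to either gene. CLCN6 itself was called on 0 of the 7 days. Under the fold threshold it was lower in high purity wells on day 4 (-0.38, limma adjusted p 7.62e-05) and on day 8 (-0.31, limma adjusted p 0.0017). On day 4 its mean was 14.0 TPM in the high purity class and 18.5 TPM in the low purity class, above every NPPA well of that day.

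Stretches of sequence just before the start of NPPA are shown because NPPA was called on day 4, the earliest day with a call. Each line is 30 bases of the NPPA strand from the RefSeq promoter entry (GRCh38.p14), with the matched letters in capitals. The TATA box lies 29 to 24 bases before the start (chr1:11847795-11847824), a GATAA core 141 to 137 bases before (chr1:11847908-11847937), the same core on the other strand 95 to 91 bases before (chr1:11847862-11847891), and an AP-1 site 240 to 234 bases before (chr1:11848004-11848033).
TATA box: gagctggggggcTATAAAaagaggcggcac
GATA core, distal: agccctgcgggatGATAActttaaaagggc
GATA core, proximal, other strand: tcacttggcagctTTATCactgcaagtgac
AP-1 site: gggagcctctTGAGTCAaatcagtaagaat
The 250 bases before each start were searched on both strands for 4 motifs. The GATA core, GATAA, was found in 20.44% of 35116 such windows. The 7 genes with a promoter entry have 11 windows, since FURIN has 4 starts and NPR3 has 2, and GATAA was in 3 of the 11 (NPPA, NPPC and 1 of FURIN). The TATA box, TATAAA, was found in 10.72% of all windows and in 3 of the 11, of the same genes. The AP-1 site, TGANTCA, was found in 6.573% of all windows and in 1 of the 11. An element of the heart factor NKX2-5, TNAAGTG, was found in 8.731% of all windows and in 0 of the 11. A match is a description of the letters and not evidence of binding.

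NPPB (chr1:11857464-11858945, minus strand) lies next to NPPA and had the larger difference of the pair on day 4. Its reads were 0 in all 4 high purity wells of day 2 and in 3 of 4 low purity wells. On day 4 it measured 8.81, 19.6, 20.9 and 24.3 TPM in the high purity class and 105, 120, 140 and 151 TPM in the low purity class. The classes stood far apart, with the low purity wells higher. High minus low was -2.80 (SE 0.26, limma adjusted p 2.44e-12). On day 6 the classes overlapped, at 34.5 to 81.5 TPM in the high purity class and 57.9 to 71.2 TPM in the low purity class, and the difference of -0.44 was not called. On day 8 they stood apart again: the high purity wells held 26.3, 51.6 and 54.6 TPM and the low purity wells 201, 227, 280 and 320 TPM, at a log2 fold change of -2.33 (SE 0.28, limma adjusted p 2.16e-09).

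On day 10 NPPB was 46.2 TPM in the only high purity well and 86.7 to 166 TPM in the low purity wells. On day 13 NPPB was 79.3 and 94.3 TPM in the high purity class and 89.5 to 121 TPM in the low purity class, which overlapped. On day 16 it was 44.1, 51.8 and 79.7 TPM in the high purity class and 124, 182 and 182 TPM in the low purity class. The low purity class was higher without overlap, at a log2 fold change of -1.27 (SE 0.30, limma adjusted p 0.000472). With a pseudocount of 0.1 TPM in place of 1 the fold was nearly equal and the limma adjusted p was 0.0649. That fit shares a single spread per gene over all days, and NPPB was at 0 TPM in 13 of the 56 wells. These were wells of days 0 and 2, and their part in that p was not tested. NPPB thus had 2 peaks in the low purity class, at 129 ± 20.4 TPM on day 4 and 257 ± 53.5 TPM on day 8 (SD, n = 4 each), with 65.0 ± 5.46 TPM between them on day 6. The fall from day 4 to day 6 was called at -1.03, just past the threshold, and it was no longer called with no scaling (-0.97), with RLE scaling (-0.98), with the smaller pseudocount (limma adjusted p 0.0972), or without low purity well 1 (-0.99) or well 4 (-0.93) of day 4 or well 1 (-0.96) of day 6. On day 4 both NPPB and the cardiomyocyte marker sum were higher in low purity wells. On days 8 and 16 NPPB was higher in the class with the lower cardiomyocyte sum, which on day 8 was 15322 to 17915 TPM in the high purity class and 6150 to 9651 TPM in the low purity class.

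NPPC (chr2:231921809-231926396, minus strand) stayed at or below 1.79 TPM in every well up to day 10. On day 13 it was 0.380 and 0.757 TPM in the high purity class and 6.91, 7.12, 8.22 and 8.87 TPM in the low purity class. On day 16 it was 0.480, 0.560 and 0.691 TPM in the high purity class and 11.6, 15.8 and 17.9 TPM in the low purity class. NPPC was high in both sets of low purity wells and low in every high purity well. The reads behind it on day 16 were 185 to 225 per low purity library against 7 to 13 per high purity library. The log2 fold changes, high minus low, were -2.39 on day 13 (SE 0.25, limma adjusted p 6.95e-11) and -3.30 on day 16 (SE 0.23, limma adjusted p 4.32e-16). The class means on day 16 differed 26.2-fold. On day 6 NPPC had gone the other way below the fold threshold, at 1.15 ± 0.608 TPM in the high purity class and 0.222 ± 0.163 TPM in the low purity class (SD, n = 4 each; log2 fold change 0.74, limma adjusted p 0.00271). The fibroblast and epicardial marker sums on day 16 were higher in the same low purity wells. Smooth muscle markers, with MYH11 listed at 0, summed to 1145 to 1266 TPM there against 187 to 202 TPM. Endothelial and endocardial markers summed to 164 to 241 TPM against 46.7 to 56 TPM, but not all members went that way. Of these 8 markers, 4 had a mean of at least 1 TPM in the low purity class, where CD34 was at 0. In the high purity class all 8 did. In the other direction, 3 chondrogenic markers summed to 135 to 178 TPM in low and 306 to 337 TPM in high purity wells.

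The NPPC promoter is shown because it holds the GATAA core and the TATA box, as that of NPPA does, while NPPC stayed low up to day 10. The first line holds bases 250 to 61 before the start (chr2:231926457-231926646, minus strand), with GATAA in capitals, and the second the TATA box 29 to 24 bases before it (chr2:231926408-231926437).
NPPC upstream: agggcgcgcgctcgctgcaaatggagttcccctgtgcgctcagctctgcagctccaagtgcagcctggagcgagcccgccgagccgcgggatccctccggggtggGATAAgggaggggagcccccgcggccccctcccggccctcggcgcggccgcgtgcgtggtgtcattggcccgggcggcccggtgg
NPPC TATA box: ggcaggttggatTATAAAggcgcgagcaga
The GC content of the 250 bases was 72% for NPPC and 57.2% for NPPA.

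**Figure D2:**
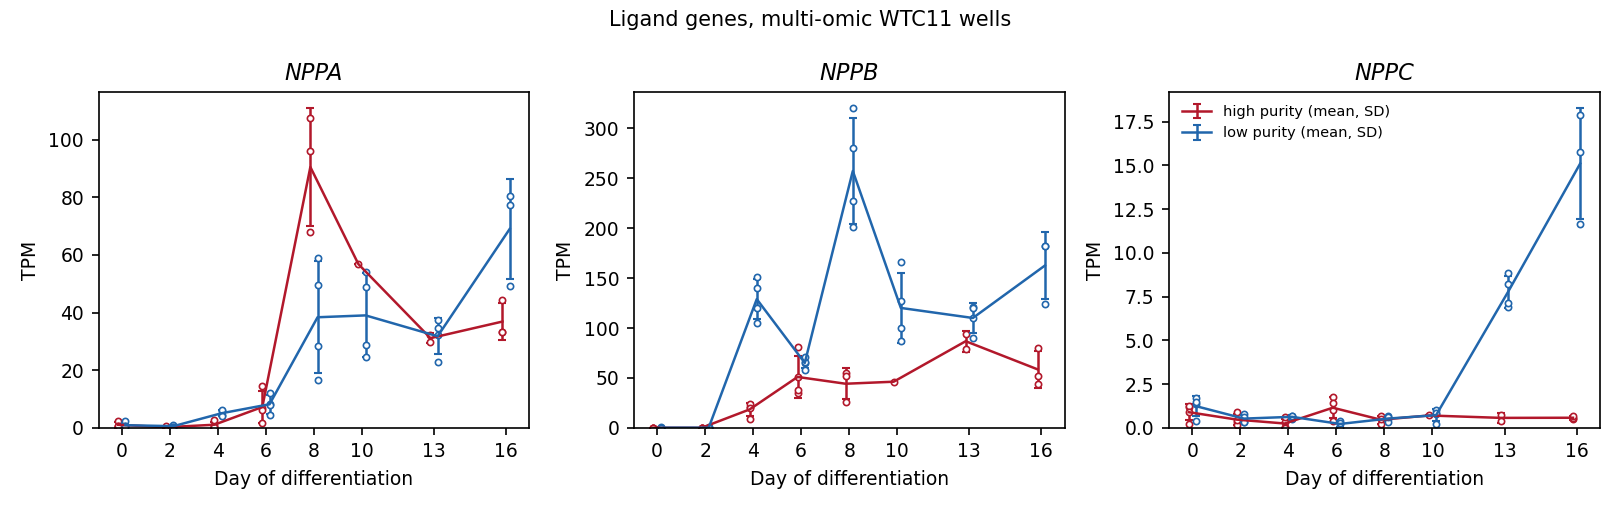
TPM (y axis, linear) of the 3 ligand genes by day (x axis) in high and low purity WTC11 wells. Points are wells, lines join the class means and bars are SD. NPPA changes sides between days 4 and 8, NPPB has 2 low purity peaks on days 4 and 8, and NPPC rises to 15.1 TPM in low purity wells by day 16.

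CORIN (chr4:47594001-47838067, minus strand) encodes the membrane serine protease of cardiomyocytes that cuts the atrial peptide precursor. It was below 2 TPM in every well up to day 4, when it was 0.259 to 0.560 TPM in the high purity class and 0.846 to 1.76 TPM in the low purity class. That day 4 difference, -0.74, stayed under the fold threshold (limma adjusted p 0.0104). On day 6 it measured 19.6, 21.9, 24.5 and 32.5 TPM in the high purity class and 4.47, 11.5, 11.6 and 15.1 TPM in the low purity class. The lowest high purity well exceeded the highest low purity well, at a log2 fold change of 1.19 (SE 0.24, limma adjusted p 5.57e-05). Without low purity well 4 of day 6 it was 0.87 and under the fold threshold. On day 8 CORIN was 65.3, 68.6 and 79.3 TPM in the high purity class and 14.8, 18.8, 24.9 and 32.4 TPM in the low purity class, at 1.88 (SE 0.26, limma adjusted p 4.12e-08). On day 10 the single high purity well held 67.9 TPM and the low purity wells 14.0 to 25.5 TPM. On day 13 CORIN was 89.4 and 95.7 TPM against 16.9 to 34.8 TPM in the low purity class (2.10, limma adjusted p 7.88e-08). The gap held on these days. On day 16 the high purity wells held 131, 132 and 148 TPM and the low purity wells 21.5, 44.3 and 48.0 TPM, at a log2 fold change of 2.12 (SE 0.27, limma adjusted p 1e-08). The means differed 3.61-fold on day 16 and 3.13-fold on day 8. The cardiomyocyte marker sum differed in the same direction on days 4, 8, 13 and 16, and on day 6 its ranges overlapped, at 4374 to 7811 TPM in the high and 2804 to 5147 TPM in the low purity class.

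The sequence before the CORIN start is shown for contrast with NPPA, since CORIN was called higher in the high purity class on days 6, 8, 13 and 16, and NPPA on day 8 alone. It covers bases 250 to 61 before the start (chr4:47838128-47838317, minus strand, GRCh38.p14) and holds no match to the 4 motifs, nor did the rest of the 250 bases.
CORIN upstream: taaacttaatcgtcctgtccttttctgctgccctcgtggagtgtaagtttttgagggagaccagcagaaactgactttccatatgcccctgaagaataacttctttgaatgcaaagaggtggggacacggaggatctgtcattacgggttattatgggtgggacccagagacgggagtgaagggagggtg

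FURIN (chr15:90868588-90883457, plus strand) encodes a protease of the secretory pathway found in most cells. It was expressed in every library, at 13.5 to 18.3 TPM on day 0. It rose in both classes from day 2 to day 4, by 1.58 in the high purity class and 1.43 in the low purity class on the log2 scale (limma adjusted p 1.97e-22 and 5.09e-21). On day 6 the high purity wells held 118, 121, 124 and 131 TPM and the low purity wells 61.5, 69.4, 72.0 and 72.3 TPM. The classes stood clearly apart on that day, but the log2 fold change of 0.82 (SE 0.08, limma adjusted p 2.13e-12) was under the fold threshold, as was that of day 8 (0.69, limma adjusted p 1.19e-09). On day 16 FURIN stood lower in both classes, at 33.9 ± 3.50 TPM in the high purity class and 43.0 ± 2.35 TPM in the low purity class (SD, n = 3 each). The fall from day 8 to day 16 was called in high purity wells (-1.08, limma adjusted p 4.08e-14) and was -0.26 in low purity wells, under the fold threshold.

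**Figure D3:**
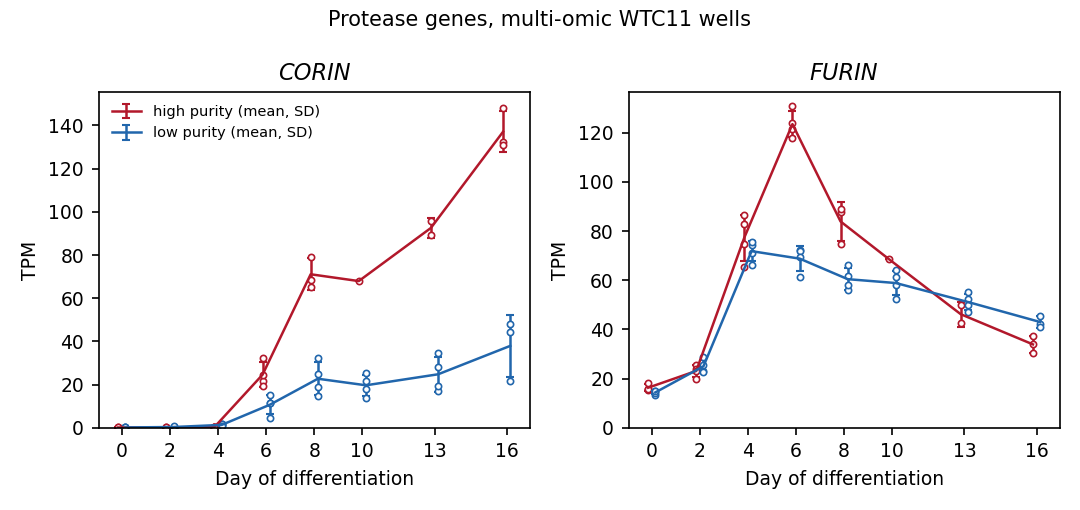
TPM (y axis, linear) of the 2 protease genes by day (x axis) in high and low purity WTC11 wells. Points are wells, lines join class means and bars are SD. CORIN separates the classes from day 6 on, and FURIN peaks at 124 TPM on day 6 in the high purity class.

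NPR1 (chr1:153678688-153693992, plus strand), the cyclase receptor for the atrial and brain peptides, had the largest log2 difference of the 8 genes on day 16 with a pseudocount of 1 TPM. With 0.1 TPM NPPC (-4.30) was past NPR1 (-4.20). It was present before differentiation, at 12.8, 13.8, 15.6 and 18.8 TPM in the high purity class and 8.63, 10.6, 11.1 and 12.8 TPM in the low purity class on day 0. By day 4 it was lower in both classes, at 4.15 to 5.45 TPM in the high purity class and 3.23 to 5.07 TPM in the low purity class. On day 6 it was 3.71, 5.56, 5.74 and 7.02 TPM in high but 22.7, 22.9, 30.4 and 38.0 TPM in low purity wells. Low purity wells had thus risen 7.70-fold within 2 days (log2 fold change 2.56, limma adjusted p 1.53e-17), while high purity wells had not moved past the test (0.05, limma adjusted p 0.890). The low purity class peaked on day 10, at 54.5 ± 3.77 TPM (SD, n = 4), when the single high purity well held 3.26 TPM. On day 16 NPR1 was 0.799, 1.13 and 1.5 TPM in the high purity class and 23.2, 25.7 and 27.4 TPM in the low purity class. The means differed 22.2-fold, at a log2 fold change of -3.55 (SE 0.18, limma adjusted p 1.37e-20). The differences on days 6, 8 and 13 were -2.17, -2.71 and -2.95, with limma adjusted p of 2.77e-15, 2.25e-17 and 1.15e-16. On day 2 the sign was the opposite, at 0.65 (limma adjusted p 0.000913), under the fold threshold. Some cell type marker sums were also higher in the low purity class on day 6. The epicardial sum was 64.8 to 119 TPM against 3.95 to 4.70 TPM, and the fibroblast sum 3123 to 4847 TPM against 858 to 1159 TPM. Other sums were not: endoderm markers summed to 295 to 473 TPM in low and 741 to 1153 TPM in high purity wells. Pluripotency markers summed to 371 to 518 TPM in low and 969 to 1152 TPM in high purity wells. The endothelial and endocardial sums overlapped, at 262 to 344 TPM and 283 to 340 TPM. The part of these markers in the NPR1 difference was not tested.

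NPR2 (chr9:35791591-35809731, plus strand), the cyclase receptor for the C-type peptide, was called in no comparison. It measured 2.84 to 8.88 TPM over all 56 wells, with class means from 3.2 TPM (low purity, day 0) to 7.62 TPM (low purity, day 10). Its largest difference between classes was 0.34 on day 0 (SE 0.14, limma adjusted p 0.1), and none of the 7 days or 10 day-to-day steps was called. On day 16, when its ligand gene NPPC differed 26.2-fold between classes, NPR2 held 2.84, 3.74 and 4.88 TPM in the high purity class and 4.21, 4.48 and 6.21 TPM in the low purity class. These ranges overlapped, and the difference was -0.14 (SE 0.16). Of its exon bases 8.512% lie in exons of SPAG8 on the opposite strand.

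NPR3 (chr5:32690872-32791720, plus strand), which encodes the receptor without a cyclase, changed sides. It held 0 to 9 reads per library on days 0 and 2. On day 6 it was 8.14, 9.90, 10.5 and 14.1 TPM in the high purity class and 1.12, 1.69, 1.89 and 2.54 TPM in the low purity class. High purity wells were higher without overlap, at a log2 fold change of 2.00 (SE 0.14, limma adjusted p 2.71e-16), and again on day 8 at 1.85 (limma adjusted p 3.16e-14). On day 10 NPR3 was 5.16 TPM in the only high purity well and 2.87 to 3.77 TPM in the low purity wells. On day 13 the classes overlapped, at 6.39 and 8.63 TPM in the high purity class and 7.93 to 11.1 TPM in the low purity class. On day 16 it was 3.95, 5.01 and 7.36 TPM in high but 20.4, 23.8 and 25.3 TPM in low purity wells. The order had reversed without overlap, at -1.76 (SE 0.16, limma adjusted p 6.7e-13). NPPC and NPR3 were thus both highest in the same group of wells, low purity on day 16.

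**Figure D4:**
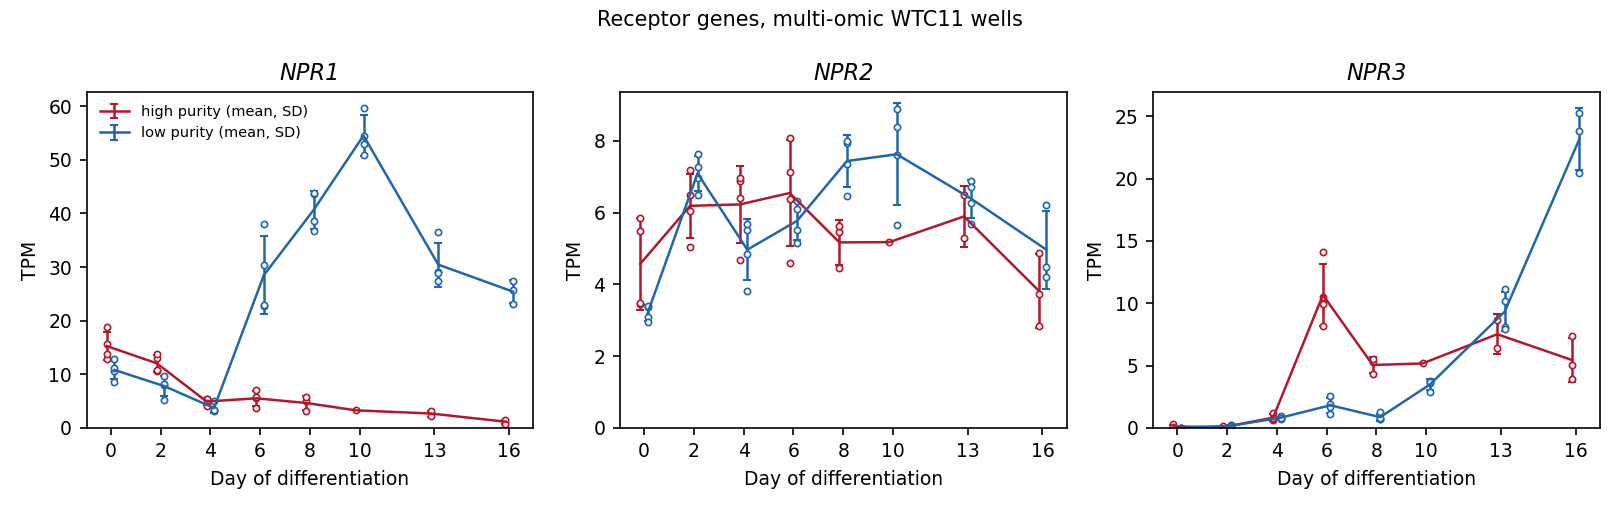
TPM (y axis, linear) of the 3 receptor genes by day (x axis) in high and low purity WTC11 wells. Points are wells, lines join class means and bars are SD. NPR1 peaks at 54.5 TPM in low purity wells on day 10, NPR2 stays between 2.84 and 8.88 TPM, and NPR3 is higher in high purity wells on day 6 and in low purity wells on day 16.

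Within each differentiation, 12 of 40 changes between sampled days (8 genes at 5 steps) were called. In the high purity class the step ending on day 2 had 0 calls (16.7% of all genes tested), that ending on day 4 had 3 (13.7%), day 6 had 4 (7.96%), day 8 had 2 (5.59%), and the change between days 8 and 16 had 3 (11.4%). In the low purity class the same steps had 0 (17.9% of all genes), 3 (16.9%), 3 (6.61%), 3 (3.31%) and 3 calls (6.39%). NPPC was called at none of the steps up to day 8. In low purity wells NPPA and NPPB both rose from day 2 to 4, by 1.88 and 6.79 (limma adjusted p 5.33e-05 and 3.85e-26). In high purity wells NPPB rose at that step, by 4.13 (limma adjusted p 3.46e-18), at least 18.0-fold over the level that 3 reads per library would give on day 2. NPPA rose there from day 4 to 6, by 1.74 (limma adjusted p 0.000283), and from day 6 to 8, by 3.94 (limma adjusted p 1.65e-10). Its high purity wells of days 4 and 6 overlapped, at 0.290 to 2.63 and 1.51 to 14.6 TPM (exact permutation p 0.0571). NPPB and NPR3 also rose in high purity wells from day 4 to 6, by 1.34 and 2.57 (limma adjusted p 4.1e-05 and 3.74e-20). In low purity wells NPPA and NPPB rose from day 6 to 8, by 2.00 and 1.94 (limma adjusted p 6.43e-05 and 8.53e-08). Whether the classes differ at these early steps was tested only as the difference on each day.

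CORIN rose from day 4 to 6 in both classes, by 4.08 in the high purity class and 2.15 in the low purity class (limma adjusted p 6.64e-19 and 3.52e-10), and from day 6 to 8, by 1.75 and 1.06. The low purity step from day 6 to 8 was no longer called without well 4 of day 6 (0.74), well 2 of day 8 (0.88) or well 3 of day 8 (0.99), or with the pseudocount of 0.1 TPM (limma adjusted p 0.0565). From day 8 to 16 CORIN rose by 1.15 in high purity wells (limma adjusted p 0.000534), which was 0.94 with no scaling and not called with the smaller pseudocount (limma adjusted p 0.0692). NPR1 fell by 1.24 from day 2 to 4 and by 1.28 from day 8 to 16 in high purity wells (limma adjusted p 7.31e-09 and 1.44e-07).

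The change from day 8 to day 16 differed between the differentiations for 4 of the 8 genes, against 9.16% of all genes. NPPA went from 90.5 to 36.9 TPM in the high purity class and from 38.4 to 69.0 TPM in the low purity class. The difference of these changes was -2.22 (SE 0.61, limma adjusted p 0.00435, and 0.0684 with the pseudocount of 0.1 TPM). Within high purity wells the NPPA change of -1.05 was not called (limma adjusted p 0.0534). NPPC (-3.31, SE 0.32, limma adjusted p 3.18e-11) and NPR3 (-3.61, SE 0.22, limma adjusted p 3.95e-17) rose in low purity wells, by 3.52 and 3.85, and were not called in high purity wells, at 0.20 and 0.25. NPPA within low purity wells was called at 1.17 (limma adjusted p 0.0249), and was not called with no scaling (0.95), with the smaller pseudocount (limma adjusted p 0.158) or without well 1 (limma adjusted p 0.0603) or well 4 (0.141) of day 8 or well 2 (0.103) or well 3 (0.0886) of day 16. NPPB passed narrowly, at 1.07 (SE 0.41, limma adjusted p 0.0469). It was no longer called with well number as a replicate block (limma adjusted p 0.0543), with no filter (0.0706), with the smaller pseudocount (0.345), or without any of 6 wells: high purity wells 2 (0.225) of day 8 and 2 (0.140) or 3 (0.0565) of day 16, and low purity wells 2 (0.0878) or 3 (0.0766) of day 8 and 1 (0.143) of day 16.

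Other genes of the pathway were taken from a list of 42, of which 39 could be tested, and those named here were called on at least 3 of the 7 days or in the change from day 8 to 16. Over the list, 10 of 39 were called on day 4 (0 higher and 10 lower in high purity wells; 7.84% of all genes were called), 13 on day 8 (4 and 9; 12.2%) and 14 on day 16 (7 and 7; 13.4%). The median log2 fold change of the list was -0.38, 0.02 and 0.12 on these days, against 0.00, -0.025 and 0.00 for all genes. Among 5 genes of peptide processing and degradation, 4 were lower in high purity wells on day 16, when 13.4% of all genes were called in either direction. MME, which encodes neprilysin, the main protease that breaks down natriuretic peptides, was 1.46 ± 0.0918 TPM in the high purity class and 113 ± 9.46 TPM in the low purity class on day 16 (SD, n = 3 each; log2 fold change -5.42, limma adjusted p 4.74e-29). It had been lower in high purity wells since day 4 (-1.28). DPP4, a membrane peptidase, was 0.217 ± 0.133 against 30.5 ± 7.67 TPM, and the precursor convertases PCSK5 and PCSK6 were at -1.64 and -1.92. The fifth gene, IDE (insulin-degrading enzyme), named after its values were seen, was called on 0 days.

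Of 5 other guanylate cyclase genes tested, 2 were called on day 4 and 1 on day 16. Of 5 cyclic GMP kinase and substrate genes it was 1 and 1, and of 8 phosphodiesterase genes 2 and 1, all of them lower in high purity wells, with 7.84% and 13.4% of all genes called. The 1 gene of these groups called higher on any day was PDE2A, on day 6 (1.15), named after its values were seen. The soluble guanylate cyclase subunit gene GUCY1A1 was 5.52 ± 1.80 TPM in the high purity class and 70.8 ± 1.71 TPM in the low purity class on day 4 (SD, n = 4 each; log2 fold change -3.49, limma adjusted p 5.34e-28). PDE3A, a phosphodiesterase that cyclic GMP inhibits, was 2.54 ± 0.767 against 71.6 ± 2.12 TPM that day (-4.36). PLN, the phospholamban gene, was 2.27 ± 1.34 against 51.7 ± 5.45 TPM (-4.06). These 3 genes were lower in high purity wells on the day on which NPPA and NPPB were. GUCY1A1 and PDE3A remained so on days 6 and 8, and PLN on day 6 (-1.09). GUCY1A2 was lower on days 8, 13 and 16, PDE10A on days 4, 8, 13 and 16, and GUCY1B1 on days 4 and 8. PRKG1, the main cyclic GMP-dependent kinase, was lower on days 13 and 16 (-1.20 on day 16). The change from day 8 to 16 differed between classes for GUCY2D, a membrane guanylate cyclase (0.73 in high, -0.38 in low purity wells), and VASP, a kinase substrate (-0.88 and 0.15). PDE9A, a cyclic GMP phosphodiesterase, fell by 1.18 in high purity wells over these days. PDE5A, the cyclic GMP phosphodiesterase, also named after its values were seen, was called on 0 days.

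Among 13 transcription factor genes, 7 were higher in high purity wells on day 16 and 0 lower, with 13.4% of all genes called in either direction. NKX2-5, a cardiac homeobox gene, was 113 ± 11.9 TPM in the high purity class and 32.5 ± 5.63 TPM in the low purity class on day 8 (SD, n = 3 and 4; log2 fold change 2.00, limma adjusted p 4.77e-08). MEF2C and MYOCD, a transcription factor and a coactivator of muscle genes, were lower in high purity wells on day 4 (-2.24 and -1.99) and higher on day 6 (1.58 and 1.45), so they changed sides between these days. TBX3, a repressor of working muscle genes including NPPA, was 161 ± 39.0 against 33.2 ± 9.35 TPM on day 8 (2.48). NPPA was also higher in high purity wells that day. TBX3 was called higher there on days 6, 13 and 16 too (1.31, 1.66 and 1.07). On those days NPPA was not called (-0.36, 0.18 and -0.65). From day 8 to 16 TBX3 changed by -2.97 in high and -1.56 in low purity wells. From day 8 to 16 the heart factors TBX5, TBX20 and HAND2 rose in high purity wells, by 1.09, 1.26 and 1.70. TBX5 had been lower there on day 4 (-1.06), and TBX20 and HAND2 were higher on day 16 (1.58 and 1.38).

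In the RNA-only experiment the classes could be compared over 3 cell lines. There edgeR called 0 of 32 high minus low differences, 8 genes at 4 steps. It called 0 genes at any step (0.0% of 24810), with 362, 1921, 1828 and 2916 genes at an unadjusted p under 0.05. Of the 32 differences 0 had an unadjusted p under 0.05 in edgeR and 2 in DESeq2 (NPPC and NPR2 at the second step), which called 0, 78, 52 and 202 of all genes at the 4 steps and 0 of the 32. CORIN had the largest difference at the last step, day 6 or 7. It measured 12.9 against 3.31 TPM in H9, 3.16 against 2.65 TPM in IMR90-4 and 10.0 against 3.08 TPM in WTC11, high before low. The high purity library was higher in 3 of 3 lines, by 1.31 on the log2 scale (SE 0.77, edgeR adjusted p 0.536). FURIN was also higher in 3 of 3 lines at this step (0.53, SE 0.25, edgeR adjusted p 0.435).

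Levels of the cardiac ligand genes varied between lines at the second step, which was not tested. NPPB on day 3 was 40.5 and 42.6 TPM in high and low purity H9 and 1.44 and 1.39 TPM in IMR90-4, and on day 2 it was 0.0895 and 0 TPM in WTC11. NPPA followed with 16.0 and 9.79 TPM in H9, 0.779 and 0.599 TPM in IMR90-4, and 0.222 and 0.0805 TPM in WTC11. H9 of both classes thus carried both ligand transcripts at this step. The 11 cardiomyocyte markers summed to 93.7 TPM in the high and 528 TPM in the low purity H9 library, and TNNT2 among them was at 0.221 and 1.58 TPM. Their part in these levels was not tested. By the last step NPPB was 126 and 61.7 TPM in H9, 47.5 and 238 TPM in IMR90-4, and 90.9 and 67.6 TPM in WTC11. High purity was higher in 2 lines and low purity in IMR90-4, and NPPA had the same signs, at 5.13 and 0.99, 9.97 and 38.2, and 13.4 and 2.60 TPM. The cardiomyocyte marker sum had these signs too, at 2477 and 371 TPM in H9, 4593 and 5456 TPM in IMR90-4, and 2472 and 1229 TPM in WTC11. TNNT2 among these markers was higher at high purity in 3 of 3 lines. The part of the markers in the ligand levels was not tested. NPPC lay between 0.225 and 2.68 TPM and NPR2 between 1.13 and 2.53 TPM over all 24 libraries.

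NPR1 was high in a single differentiation. Low purity H9 went from 3.03 TPM on day 3 to 12.0 TPM on day 5 and 35.7 TPM on day 7, with 2516 reads. The other 5 differentiations ended between 1.09 and 3.56 TPM. In low purity H9 on day 7 the fibroblast and stromal markers summed to 1693 TPM and the epicardial markers to 73.3 TPM, against 196 to 442 TPM and 1.05 to 14.5 TPM in the other 5 libraries of that step. Their part in the NPR1 level was not tested. In WTC11, NPR1 on day 6 was 1.56 TPM at high and 3.14 TPM at low purity, whereas the low purity WTC11 wells of the multi-omic experiment, given the same passage number, held 22.7 to 38.0 TPM on day 6. On day 4, NPPB of low purity WTC11 was 7.20 TPM here and 105 to 151 TPM there. The 2 tables come from different kits and were normalized separately, so these levels were not tested against each other. The 11 cardiomyocyte markers of low purity WTC11 on day 4 summed to 84.7 TPM here and 3353 to 4072 TPM there. Over the 3 low purity libraries of this step they summed to 84.7 to 346 TPM. The part of these markers in the NPPB levels was not tested.

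**Figure D5:**
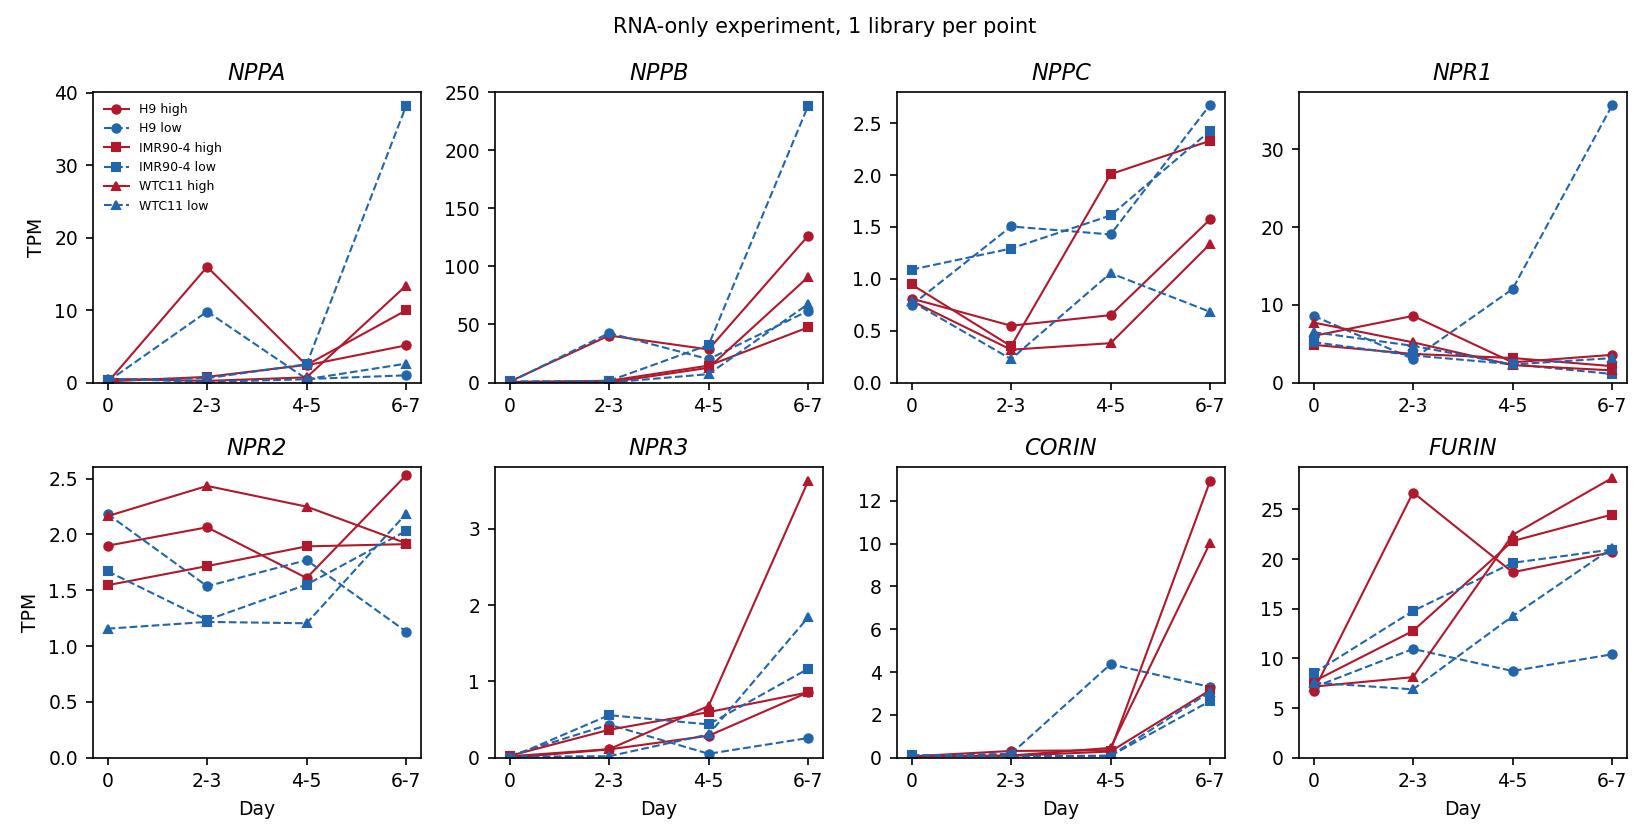
TPM (y axis, linear, a separate scale for each gene) of the 8 genes at the 4 steps (x axis, day) in the RNA-only experiment, 1 library per point. Colours are the purity classes and symbols the cell lines. NPPA and NPPB are already up in both H9 differentiations on day 3, and NPR1 reaches 35.7 TPM in low purity H9 alone.

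With each differentiation as its own block, edgeR called 3 of 8 genes from the first to the second step (25.6% of 23848 genes). It called 0 from the second to the third (6.86%) and 1 from the third to the fourth (3.72%). From the second to the third, 2 of 8 had an unadjusted p under 0.05 in edgeR, as did 7597 of the 23848 genes. NPR3 rose first, by 4.39 (SE 0.87, edgeR adjusted p 0.000459), in 6 of 6 differentiations, but from 0 to 5 reads per library and to no more than 0.559 TPM. By limma on log2(TPM + 1) that NPR3 step was 0.30 and not called (adjusted p 0.218). NPPB rose by 4.33 (SE 1.15, edgeR adjusted p 0.00444) and NPPA by 3.55 (SE 1.35, edgeR adjusted p 0.0360), each in 4 of 6 differentiations (NPPA was not called by limma, adjusted p 0.134). Both rested on H9: without that line NPPB was at 1.12 (edgeR adjusted p 0.247) and NPPA at 0.00 (edgeR adjusted p 1). Without IMR90-4 NPPA was not called either (edgeR adjusted p 0.0688). CORIN rose from the third to the fourth step by 3.41 (SE 0.71, edgeR adjusted p 0.00738) in 5 of 6 differentiations. In low purity H9 it did not go up, at 4.37 TPM on day 5 and 3.31 TPM on day 7. The CORIN call was lost without IMR90-4 (edgeR adjusted p 0.263), without WTC11 (0.135) or with no replicate block (0.0769).

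For each of the 8 genes, the protein-coding genes with the most similar pattern were found by Pearson r over the 16 multi-omic group means of log2(TPM + 1), among 12319 genes reaching 5 TPM in a group. These points share 2 differentiations and their library depths, so r is a description. CORIN had the closest neighbours, the muscle genes FSD2 (r = 0.997), CTNNA3 (0.989) and ACTN2 (0.988), with r of 0.777, 0.763 and 0.861 over the 24 RNA-only libraries. NPPB was nearest to MICAL2 (0.985), GUCY1A1 (0.981) and PNPLA8 (0.979), with 0.895, 0.845 and 0.709 there. NPPA was nearest to CYB5R3 (0.976), MOCS2 (0.974) and CSRP3 (0.972), and for CYB5R3 the RNA-only r was -0.33. FURIN was nearest to DOK6 (0.974), TFPI (0.970) and COL4A6 (0.967). NPR1 was nearest to LRRN2 (0.941), NSG1 (0.930) and PARG (0.924), NPR3 to COG1 (0.914), PSD (0.909) and LTBP3 (0.897), and NPPC to TRIL (0.903), NPHS1 (0.893) and CILP (0.889). For the neighbours of NPPC the RNA-only r was 0.37, -0.07 and -0.01. NPR2 had the most distant ones, LANCL1 (0.887), RNF170 (0.874) and HDAC10 (0.873). With TNNT2, r was 0.907 for CORIN, 0.905 for NPPB and 0.902 for NPPA, 0.767 for NPR3, 0.677 for FURIN, 0.19 for NPPC, 0.04 for NPR2 and -0.08 for NPR1. Over the RNA-only libraries the order was another: CORIN 0.894, NPPB 0.699, NPR3 0.684, NPPC 0.623, NPPA 0.574, FURIN 0.461, NPR2 0.286 and NPR1 -0.17. Among the 8, the closest pair was NPPA with CORIN (0.924), its processing protease, and NPPA with its receptor gene NPR1 gave 0.05.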

How the data were processed

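Poly(A) libraries (TruSeq Stranded mRNA) and total RNA libraries (SMARTer Stranded Total RNA) were sequenced. Per the submitters' processing notes, hg38, STAR 2.5.3a and featureCounts 2.0.3 were used; the annotation release, strand setting and TPM calculation are not given in the sources used here. The authors deposited whole-number counts per gene, not normalized, and TPM values for each experiment; 36 broken lines of the RNA-only count table were left out. Multi-omic count columns carried other names than the TPM columns that hold the same reads (50 of 56, 0 of them in the same group; 6 had no match), so multi-omic tests used TPM. Reads were recovered with gene lengths solved from the RNA-only tables (37194 genes; 100% of nonzero values whole within 0.05 reads).

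Multi-omic genes reaching 1 TPM in 3 or more libraries were kept, TPM were scaled by TMM factors, and log2(TPM + 1) was fitted with limma 3.58.1 (limma-trend, R 4.3.3; 16 group means, 40 residual degrees of freedom). Fold changes on this scale understate those of low genes. RNA-only counts were fitted with edgeR 4.0.16 (quasi-likelihood, TMM, filterByExpr): high minus low within 12 line-by-step means (8 residual degrees of freedom), and steps with the differentiation as a block (15). P-values were adjusted by Benjamini-Hochberg over all genes tested. Permutation tests of TPM were exact and two-sided. Scripts were tested on simulated data. Cell lines pair the RNA-only differentiations (correlations of deviations 0.17 to 0.75 in 12 of 12 pairs). All 8 members are named in every comparison; other pathway genes when called on at least 3 of 7 days or in the contrasts of days 8 and 16; and the 3 genes most like each member by Pearson r. Gene positions and promoters are from RefSeq (GRCh38.p14), overlaps from GENCODE v29; 7 of 8 members had a promoter entry. The members and lists were chosen with earlier results of these data known. Alternatives were another pseudocount, scaling, filter, tool, block, no fold threshold, each library or line left out, and the count table under its own names. DESeq2 1.42.0 was run on RNA-only counts.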

Additional observations from a re-analysis of the deposited data

Results flagged for a closer look

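In 4 of 61 groups of 4 wells tested, 1 well stood apart from the other 3, where chance alone flags about 5% of groups (3.05 here). The gap to the next well was 0.868 of the range for NPPA on day 0 in high purity wells (2.53 against 0.680 TPM, on 8 and 3 reads). For NPR1 on day 4 in low purity wells it was 0.984 (5.07 against 3.26 TPM), and for FURIN on day 0 in high purity wells 0.893 (18.3 against 15.8 TPM). NPR3 on day 10 had a low purity well below the others, with a gap of 0.849 (2.87 against 3.64 TPM).

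The change from day 8 to day 16 differed between the high and the low purity differentiation for 4 of the 8 genes. Of all genes tested, 9.16% were called. The test was of the difference itself in limma. The difference was -2.22 for NPPA (limma adjusted p 0.00435), 1.07 for NPPB (0.0469), -3.31 for NPPC (3.18e-11) and -3.61 for NPR3 (3.95e-17), high minus low. NPPB was no longer called in 6 of 13 fits with a single well left out. It was also lost with a replicate block, with no filter and with a pseudocount of 0.1 TPM. NPPA was not called with that pseudocount either.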

How the results depend on the processing

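Of the 18 calls between the classes, leaving out any 1 well left 17 to 18; the 12 high purity day-to-day calls became 12 to 13, the 12 low purity calls 11 to 13, the 4 differences in change 3 to 4, and NPPA and NPPB on day 16 lay between -0.88 and -0.52 and between -1.45 and -1.13. The 4 RNA-only step calls became 2 to 6 when a line was left out (2 without IMR90-4, 6 without H9), and the 0 class calls stayed 0. Without the fold threshold the day-to-day calls were 19 (high) and 26 (low), and all genes were not counted this way. By edgeR on recovered reads there were 19 in the low purity class, where calls among all genes rose too. Over the low purity steps in order these were 6683, 6235, 2887, 1667 and 2835 of 24223 genes. In limma they were 4586, 4332, 1697, 850 and 1640 of 25664 genes. With a pseudocount of 0.1 TPM NPPB on day 16 was -1.28 and not called. Well numbers were no pairs (0 of 24 correlations over 0.1, -0.0162 to 0.0327). With well number as a replicate block the counts were 18, 12, 12 and 3, and with no replicate block the RNA-only counts were 0 and 5. NPR3 and NPPA from the first to the second RNA-only step were not called by limma on log2(TPM + 1) (adjusted p 0.218 and 0.134). With no scaling the all-gene median was -0.179, -0.133 and -0.118 for days 8, 13 and 16.

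The multi-omic count table under its own column names gave 11 class calls, 7 and 2 day-to-day calls (high and low) and 0 differences in change. NPPB on day 16 was -2.71 (edgeR adjusted p 0.365). Of 24288 genes, 3541, 1539, 2083, 3083, 2587, 2227 and 442 were called between classes on the tested days in order. The difference in change was called for 588 of them. Signs reversed between classes for NPPA on days 4 (0.81) and 8 (-1.57), NPR1 on days 8 (1.52) and 16 (0.85), and CORIN on days 8 (-0.91), 13 (-7.22) and 16 (-1.75). They reversed in high purity steps for NPR1 (0.12, day 4), NPPB and NPR3 (-0.78 and -1.68, day 6), NPPA and CORIN (-2.72 and -2.97, day 8), and CORIN and FURIN (-4.56 and 0.50, day 16). In low purity steps they reversed for NPPB and FURIN (-0.049 and -0.20, day 4), NPPB and NPR1 (2.29 and -0.091, day 6), NPPA and CORIN (-0.42 and -0.98, day 8), and NPPA and NPR3 (-3.53 and -0.38, day 16). For 50 of its 56 columns the reads are those of a TPM column of another group, and for 6 no match was found, so every multi-omic result rests on the names of the TPM table.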
